A study of Mus musculus with 2 samples.

Results

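Chromatin accessibility was examined at 10 transcription factor genes known for the identity of cardiac fibroblasts, their epicardial precursors and the heart field: Tcf21, Tbx18, Wt1, Tbx20, Tbx5, Gata4, Gata6, Hand2, Mef2c and Meox1. The deposited peak table annotates 34 peaks to these genes and places 37 further distal intergenic peaks nearest to one of their transcription start sites (TSS). Together these were 71 of the 63316 peaks, and 10 of the 16934 genes with an annotated peak. All 10 genes had at least 1 annotated peak.

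These factors bind DNA at promoters and distant enhancers, and their genes are themselves switched on through such elements. Most resident fibroblasts of the ventricles descend from the epicardium, where Tcf21, Wt1 and Tbx18 are expressed, and they keep several factors of the early heart field, such as Gata4, Gata6, Tbx20, Hand2 and Tbx5. Meox1 is known as a factor of activated cardiac fibroblasts downstream of TGF-β, and Mef2c as a regulator of muscle genes. The assay for transposase-accessible chromatin with sequencing (ATAC-seq) measures how open each site is through the insertion of adapters by the Tn5 transposase, and does not measure transcription.

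The cells were cultured cardiac fibroblasts isolated from mice. In the library labelled SiPiezo2 (siPiezo2 here) an siRNA against Piezo2, which encodes a mechanosensitive ion channel, had been introduced, and the library labelled NC was its control with a scrambled siRNA. TGF-β was present in both, at 5 ng/ml over 24 h. The labels give no genetic alteration for either library and do not give the age, sex or number of mice, while the series description names a Cre-induced Tet3 knockout that the labels do not carry. Each condition is represented by 1 library, which leaves every difference between them without a replicate check, and no p-value is given. How far Piezo2 was depleted cannot be read from these data, because siRNA acts on mRNA. The 14 annotated peaks of Piezo2 had summed densities of 334 in NC and 242 in siPiezo2, a log2 ratio of -0.46 (95% counting interval -0.64 to -0.29).

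Reads were recovered as whole numbers in a window of 2000 bp around each peak summit. The windows held 4615335 reads in NC and 2754046 in siPiezo2, so that siPiezo2 had 0.597 of the NC reads, and the median window held 58 reads in NC and 36 in siPiezo2. Of all peaks, 40553 were called in the NC library only, 1365 in siPiezo2 only and 21398 in both. Values below are the authors' normalized read densities and log2((siPiezo2 + 1)/(NC + 1)), so a log2 ratio below 0 means lower density in siPiezo2. The ratios of the genes, and of the peaks described in most detail, are given with a 95% counting interval (Clopper-Pearson). A widened interval follows from the spread at peaks called in both libraries, whose variance was 2.08 times that of counting error. TSS peaks (within 1 kb) were listed for 7 of 10 fibroblast markers, Pdgfra, Pdgfrb, Col1a1 and Col1a2 among them but not Thy1, Lum or Dpt, with summed densities of 323 in NC and 286 in siPiezo2. Their median was 40.9 and 41.2, and Pdgfra (40.9 and 44.5) and Dcn (28.8 and 44.4) were higher in siPiezo2 while the others were lower. TSS peaks were listed for 2 of 10 cardiomyocyte markers (summed 35.7 and 45.4), 3 of 10 epicardial or mesothelial markers (62.8 and 73.3), 1 of 8 endothelial markers (25.8 and 28.1) and 0 of 6 immune markers.

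The question asked of the 10 genes was how the density over their peaks compared between the libraries. Summed over annotated peaks, 5 genes lay below 0 and 5 above it, with a median of -0.0066. The median of all genes was -0.093, and 62.6% of them lay below 0. Wt1 had the lowest ratio at -0.61 and Hand2 the highest at 0.43. Lower density past 1.5-fold (siPiezo2 + 1 below 0.66 of NC + 1) was seen for 1 of the 10 genes, Wt1, against 6.21% of all genes, and higher density past 1.5-fold for 0 of 10, against 1.54%. Wt1 was inside 1.5-fold, leaving 0 genes lower, with median-of-ratios scaling (-0.47), the same total density (-0.52), the same total of reads (-0.45) or its intergenic peak added (-0.48). The counts of these genes were thus near the background shares. In bulk libraries, fewer cells of a type and less open sites per cell cannot be told apart.

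Counting intervals lay below 0 for Wt1 and Mef2c, 2 of 10 genes against 15.2% of all genes, and above 0 for Gata4, 1 of 10 against 4.37%. With the widened interval, Mef2c alone lay below 0 (1 of 10, against 6.64% of all genes) and no member lay above 0 (0 of 10, against 1.39%). These calls depended on the scale. When the recovered reads were brought to the same total instead, Mef2c was at -0.22 with a widened interval of -0.55 to 0.11. The widened interval then lay below 0 for 0 of 10 genes (against 3.5% of all genes). On that scale Gata4 was at 0.31 with a widened interval of 0.060 to 0.56, the 1 such interval of 10 above 0 (against 2.75%). No gene of the 10 had a widened interval on one side of 0 on both scales. Of the annotated Mef2c peaks, 8 of 9 were called in NC only and so entered the sum through the library where they were high, and the part of that selection in the Mef2c value was not tested. The median of all genes was -0.093 on the main scale, 0.030 with equal read totals and 0.043 with median-of-ratios scaling. Relative to the median on the main scale and with equal read totals, Mef2c was at -0.34 (widened interval -0.67 to -0.016) and -0.25 (-0.58 to 0.075). The widened interval thus lay below the median for 1 of 10 genes on the main scale, against 3.58% of all genes (for 0 of 10 with overlapping windows left out), and for 0 of 10 with equal read totals, against 4.15%. Gata4 was at 0.32 (0.069 to 0.57) and 0.28 (0.030 to 0.53). It was the 1 of 10 genes whose widened interval lay above the median on either scale, against 2.78% and 2.07% of all genes. By the ratio alone, 8 of the 10 genes lay above the median on the main scale and 5 with equal read totals.

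**Figure D1:**
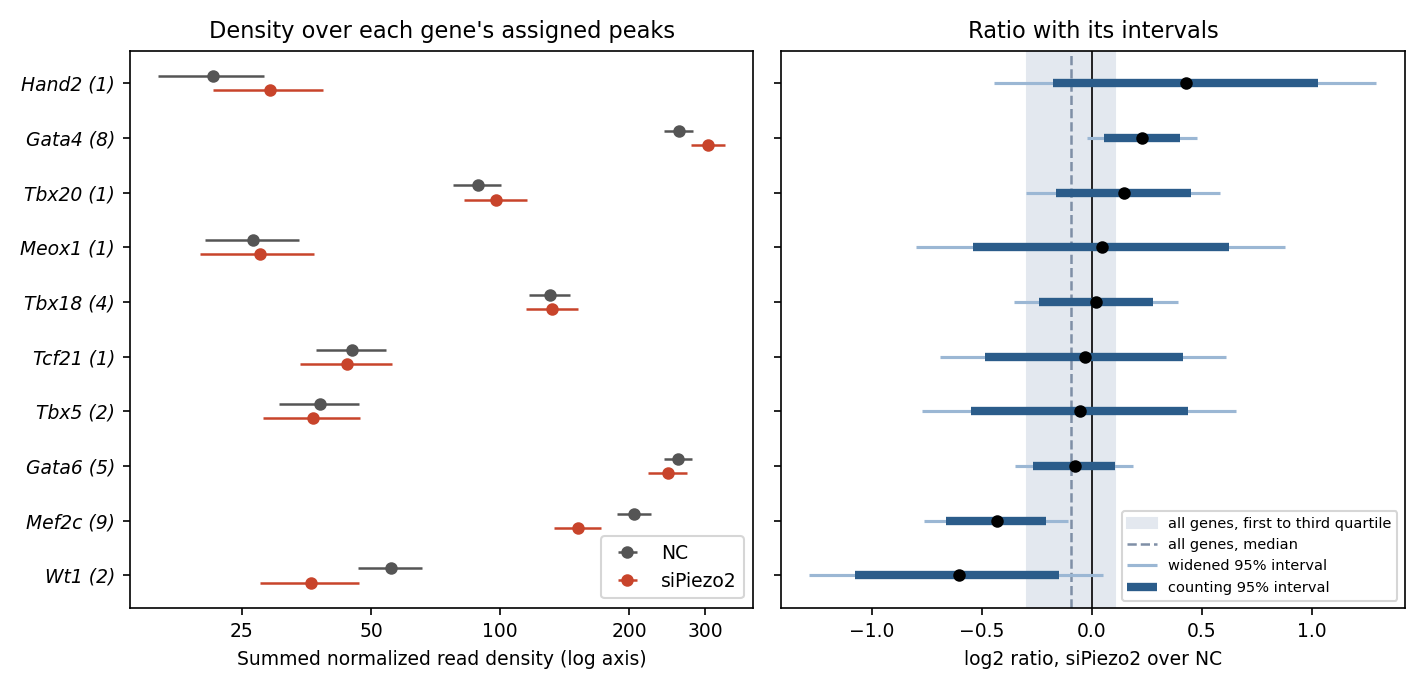
Summed normalized read density over the annotated peaks of each gene in NC and siPiezo2, on a log axis with 95% Poisson intervals (left), and the log2 ratio with its counting interval (thick line) and widened interval (thin line) beside the median and the range from the first to the third quartile of all 16934 genes (right). Numbers in parentheses are peaks per gene. The widened interval of Mef2c lies below 0, and those of the other 9 genes include it.

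Levels at the start sites were compared between genes, since all densities refer to windows of one size. A peak within 1 kb of a TSS was listed for 8 of the 10 genes. Averaged over both libraries, the density of the peak nearest a TSS was 93.3 at Tbx20, 92.1 at Gata6, 55.9 at Gata4, 45.3 at Tbx18, 44.5 at Tcf21, 32.3 at Wt1, 25.3 at Hand2 and 22.8 at Mef2c. Tbx20 and Gata6 thus stood at percentiles 97.8 and 97.5 of the 11890 genes with such a peak, whose median was 32.7, while Hand2 and Mef2c stood at 28.6 and 20.8. In NC, neighbours in this order had overlapping 95% Poisson intervals except Gata6 against Gata4 and Wt1 against Hand2. In siPiezo2 both of those pairs overlapped, and the only neighbours whose intervals did not were Tcf21 and Wt1. The order differed between the libraries. In NC alone 1 of the 8 genes kept its rank, with Gata6 above Tbx20, Gata4 below Tbx18 and Tcf21, and Hand2 below Mef2c. In siPiezo2 alone 6 of the 8 did, with Wt1 and Hand2 changing places. Meox1 and Tbx5 had no listed peak within 1 kb of a TSS. The nearest edge of a peak that the table gives to the gene lay 10.8 kb from the start of Meox1 and 10.4 kb from the first start of Tbx5.

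**Figure D2:**
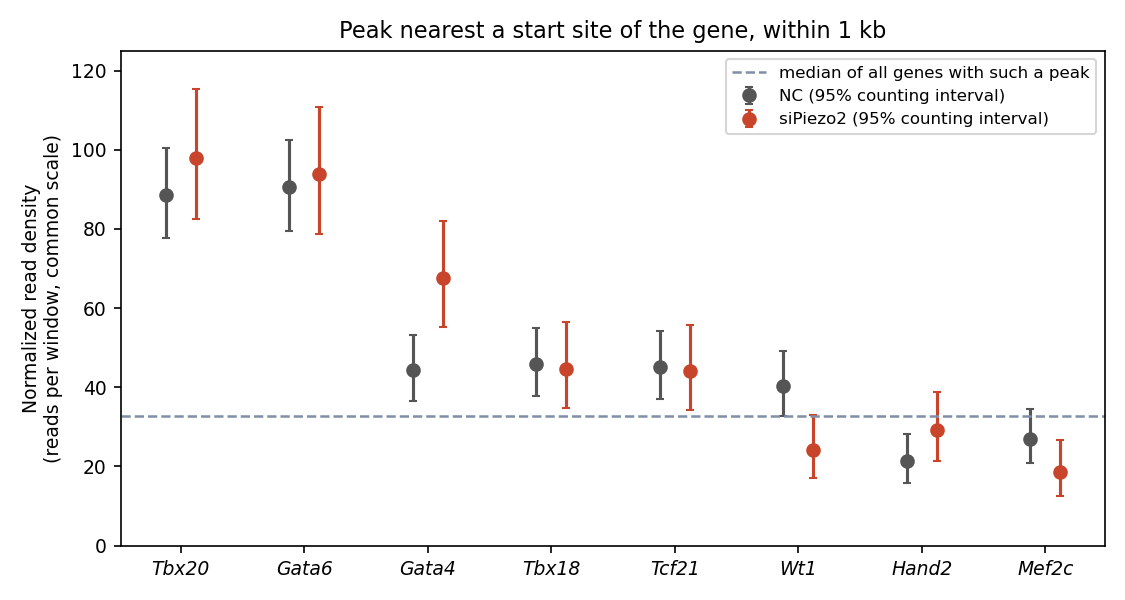
Normalized read density in NC and siPiezo2 of the peak nearest a start site for the 8 genes with a peak within 1 kb of one, in order of the mean of both libraries. Points are single libraries, bars are 95% Poisson intervals of the reads (counting error only), and the dashed line is the median of 32.7 over 11890 genes. Tbx20 and Gata6 stand highest in both libraries, and Gata4 shows the widest gap upwards in siPiezo2, from 44.3 to 67.6.

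Start-site sequences are shown for 4 of these genes. They set the GC-rich promoter with the highest mean density of both libraries (Tbx20) and the promoter of Tcf21 beside those of Hand2 and Mef2c. Hand2 had the highest gene ratio, and Mef2c the most annotated peaks below 0. RefSeq promoter entries of GRCm38.p6 matched 5 of the 10 genes (7 entries), and Wt1, Gata4, Gata6, Tbx5 and Meox1 had none. The 250 bases before the start are at chr9:24774304-24774553 on the minus strand for Tbx20, at chr8:57320733-57320982 on the plus strand for Hand2 and at chr13:83573357-83573606 on the plus strand for Mef2c. For Tcf21, on the minus strand, the run is chr10:22820175-22820393, 219 bases that end where the transcript used by the peak table begins, 31 bases before the RefSeq start. Capitals mark matches to any of 6 motifs on either strand, 1 for each kind of DNA-binding domain among the 10 factors. The motifs were the E-box CANNTG, the GATA core GATAA, the T-box motif GGTGTG, the MEF2 core TAAAAATA, the homeobox core TAATTA and the WT1 motif GCGNGGGNG.

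Tbx20: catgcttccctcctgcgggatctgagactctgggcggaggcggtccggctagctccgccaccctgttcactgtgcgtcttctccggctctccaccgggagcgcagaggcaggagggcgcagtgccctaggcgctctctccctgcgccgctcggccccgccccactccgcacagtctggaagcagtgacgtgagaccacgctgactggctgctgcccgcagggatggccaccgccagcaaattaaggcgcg
Tcf21: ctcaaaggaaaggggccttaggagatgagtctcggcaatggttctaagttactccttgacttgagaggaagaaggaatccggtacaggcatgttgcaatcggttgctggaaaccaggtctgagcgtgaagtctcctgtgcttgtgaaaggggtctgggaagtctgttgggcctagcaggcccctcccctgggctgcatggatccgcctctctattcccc
Hand2: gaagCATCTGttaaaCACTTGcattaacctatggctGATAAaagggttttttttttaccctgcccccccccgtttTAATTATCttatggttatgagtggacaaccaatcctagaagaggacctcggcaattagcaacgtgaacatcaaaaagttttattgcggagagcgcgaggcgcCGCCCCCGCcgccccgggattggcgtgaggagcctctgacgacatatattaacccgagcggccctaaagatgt
Mef2c: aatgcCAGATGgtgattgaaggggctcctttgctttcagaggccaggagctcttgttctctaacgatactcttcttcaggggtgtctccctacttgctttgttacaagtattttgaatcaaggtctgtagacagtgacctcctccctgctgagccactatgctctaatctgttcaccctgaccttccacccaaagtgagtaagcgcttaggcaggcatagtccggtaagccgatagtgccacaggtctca

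The Tbx20 run held none of the motifs and had a GC content of 68.8%, against a median of 52.4% over all 32851 promoter entries. The Tcf21 run printed held none, and a GATAA match lay 30 to 26 bases before the RefSeq start, in the stretch left out. Hand2 held 6 matches, which were 2 E-boxes, 2 GATA cores, 1 homeobox core that overlapped the second GATA core, and 1 WT1 motif 73 to 65 bases before the start. The Mef2c run, the third of 3 entries for the gene, held 1 E-box, 245 to 240 bases before the start. The first Mef2c entry held 2 E-boxes, and the second held 2 GATA cores, 1 T-box motif and 1 homeobox core. The third was printed because a listed peak covers its start. Of all promoter entries, 66.2% held an E-box, 22.6% a GATA core, 16.3% the T-box motif, 2.45% the MEF2 core, 4.84% the homeobox core and 10.5% the WT1 motif. A match is a string of letters and not a measured binding site. The summit of the peak lay 115 bases before the start at Tbx20, 45 bases before the RefSeq start at Tcf21, 68 bases before the start at Mef2c and 35 bases after it at Hand2.

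Among the factors of the epicardium and its descendants, Tcf21 and Tbx18 had near equal start-site densities in both libraries, and Wt1 had lower density in siPiezo2. Tcf21, a basic helix-loop-helix factor needed for the fibroblast fate of epicardial cells, lies at chr10:22693180-22696073 (ENSMUSG00000045680, GRCm39, minus strand). Its only peak, in the promoter at chr10:22695874-22696301, had 114 reads in NC and 68 in siPiezo2, or densities of 45.1 and 44.0. The log2 ratio was -0.03, with a counting interval of -0.49 to 0.41 and a widened interval of -0.69 to 0.61. A difference of up to about 1.5-fold in either direction is therefore inside the widened interval at this depth.

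Tbx18, a T-box repressor of the epicardium and sinus venosus, lies at chr9:87584853-87613313 (ENSMUSG00000032419, minus strand) and had 4 annotated peaks with summed densities of 130 in NC and 132 in siPiezo2. The log2 ratio was 0.02, with a counting interval of -0.24 to 0.28. Its promoter peak at chr9:87613186-87613628 had densities of 45.8 and 44.7. The intron peak at chr9:87602656-87602987 was lower in siPiezo2, with 26.7 in NC and 17.4 in siPiezo2, and the intron peak at chr9:87590273-87590547 was higher, with 24.2 and 28.7. Both of their counting intervals include 0.

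Wt1 encodes the zinc finger factor that maintains the epicardium. It lies at chr2:104956874-105003957 (ENSMUSG00000016458, plus strand) and had 2 annotated peaks, with 133 reads in NC and 58 in siPiezo2, or summed densities of 55.6 and 36.2. The log2 ratio of -0.61 had a counting interval of -1.08 to -0.15 and a widened interval of -1.28 to 0.05. The stronger peak, at chr2:104993118-104993463 in the annotation's exon class, had 99 and 38 reads, densities of 40.4 and 24.1 and a log2 ratio of -0.72 (counting interval -1.30 to -0.17, widened -1.56 to 0.078). It overlaps the start of a shorter transcript, whereas the nearest peak that the table gives to Wt1 lay 36.2 kb from the first start of the gene. With its 1 intergenic peak, at chr2:105004684-105004965, the gene was at -0.48. With equal read totals the annotated peaks were at -0.45, inside 1.5-fold, with a widened interval of -1.13 to 0.21. All 3 peaks were called in NC only, so each entered through the library where it was high. All 3 lay below 0, as did 73.1% of all peaks called in NC only, and the part of that selection in the Wt1 value was not tested. The epicardial and mesothelial markers with a TSS peak, 3 of 10, had summed densities of 62.8 in NC and 73.3 in siPiezo2. Msln was lower (25.7 and 21.7), and Upk3b (17.5 and 26.4) and Aldh1a2 (19.6 and 25.2) were higher. No TSS peak was listed for Krt8, Krt18 or Upk1b. Over all annotated peaks, 7 of the 10 markers had a median log2 ratio of 0.006, with 3 below 0. The part of these markers in the Wt1 value was not tested.

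The zinc finger factors Gata4 and Gata6, which open chromatin and act together in heart development, differed in where their peaks lay. Gata4 lies at chr14:63436371-63509141 (ENSMUSG00000021944, minus strand) and all its 8 peaks were inside the gene or at its starts. They held 647 reads in NC and 479 in siPiezo2, with summed densities of 261 and 306 and a log2 ratio of 0.23 (counting interval 0.053 to 0.40, widened -0.024 to 0.48). Of the 8 peaks, 5 were higher and 3 lower in siPiezo2. 

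Peaks lay at 2 of the places where Gata4 transcripts start in the table, and a further start, inside the gene, had none of the gene's peaks within 6.24 kb. The peak at the upstream start, at chr14:63508914-63509264 in the 5′ UTR class, had 114 and 103 reads and densities of 44.3 and 67.6. Its log2 ratio was 0.60, with a counting interval of 0.20 to 0.996 and a widened interval of 0.024 to 1.17. The promoter peak at the starts farther downstream, at chr14:63482656-63483117, had 128 and 75 reads and densities of 50.1 and 48.9, with a log2 ratio of -0.03. In NC the counting interval of the upstream peak, 36.5 to 53.2, includes the density of the downstream one. The difference between the ratios of these peaks was not tested. The lowest value in the gene was -0.43 at the intron peak chr14:63493421-63493680 (33.4 and 24.6), whose counting interval includes 0. Of the 71 peaks, the upstream Gata4 peak was the 1 whose widened interval lay above 0, against 1.01% of all peaks, and 0 of 71 had one below 0, against 3.53%.

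Gata6 lies at chr18:11052470-11085635 (ENSMUSG00000005836, plus strand). Its 5 annotated peaks held 675 and 369 reads and summed densities of 260 and 246, a log2 ratio of -0.08 (counting interval -0.27 to 0.11, widened -0.35 to 0.19). The peaks at its start, at chr18:11052225-11052743 and chr18:11053107-11053381, had densities of 90.5 in NC and 93.8 in siPiezo2 and of 84.3 and 88.6. Their windows overlap, so part of their reads are the same. A pair of intron peaks at chr18:11066851-11067091 and chr18:11067234-11067523, which also share reads, was lower in siPiezo2, from 31.3 to 20.0 and from 32.1 to 20.1. Their log2 ratios were -0.62 and -0.65, both past 1.5-fold, and their widened intervals include 0.

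Among the T-box activators and the other heart field factors, the widened intervals of the gene ratios included 0 except that of Mef2c on the main scale. Tbx20, a T-box factor of the cardiac progenitors, lies at chr9:24651544-24685599 (ENSMUSG00000031965, minus strand) and had 1 peak, in the promoter at chr9:24685439-24685990. This peak held 240 reads in NC and 143 in siPiezo2, and its densities of 88.6 and 98.0 gave a log2 ratio of 0.14 (counting interval -0.16 to 0.45, widened -0.30 to 0.58). With equal read totals the libraries were level at this promoter, with a widened interval of -0.45 to 0.44.

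Tbx5, a T-box factor of the left ventricle and forelimb, lies at chr5:119972728-120023284 (ENSMUSG00000018263, plus strand) and had 2 intron peaks. The peak at chr5:119983086-119983403 had densities of 21.2 in NC and 14.7 in siPiezo2, and the peak at chr5:120015410-120015619 had 16.9 and 21.9. Their log2 ratios of -0.50 and 0.36 had opposite signs, and both counting intervals include 0. Summed, the gene had 88 and 60 reads, densities of 38.1 and 36.7 and a log2 ratio of -0.05 (counting interval -0.55 to 0.44).

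Hand2, a basic helix-loop-helix factor of the right ventricle and the epicardium, lies at chr8:57774018-57777668 (ENSMUSG00000038193, plus strand). Its only peak, at chr8:57773935-57774171 over the start, held 51 reads in NC and 47 in siPiezo2. The densities of 21.4 and 29.1 gave the highest log2 ratio of the 10 genes, 0.43, but with few reads the counting interval ran from -0.18 to 1.03. With equal read totals it was at 0.62, with a widened interval of -0.25 to 1.48. The peak was called in NC only although its density was higher in siPiezo2.

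Mef2c, a MADS-box factor of muscle and heart development, lies at chr13:83652153-83815199 (ENSMUSG00000005583, plus strand) and had the most annotated peaks of the 10 genes. The 9 peaks held 480 reads in NC and 246 in siPiezo2, with summed densities of 205 and 152 and a log2 ratio of -0.43 (counting interval -0.66 to -0.21, widened -0.76 to -0.11). The windows of chr13:83720238-83720518, chr13:83721537-83721780 and chr13:83722455-83722664 overlap, so part of their reads are counted more than once and these intervals are narrower than the reads allow. Without the middle one the ratio was -0.44, with a widened interval of -0.79 to -0.091. Relative to the median of all genes it was then at -0.35, with a widened interval of -0.70 to 0.0014 that includes that median. Density was lower in siPiezo2 at 8 of the 9 peaks, and at 9 of 10 with the intergenic peak, where 63.7% of all peaks and 73.1% of the peaks called in NC only lay below 0. The 8 lower peaks were all called in NC only, and the peak called in both libraries, at chr13:83800178-83800540, was the 1 that was higher, with 17.6 and 23.2 and a log2 ratio of 0.38 (counting interval -0.30 to 1.05).

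The lower peaks of Mef2c were spread over several of its starts and introns. The lowest ratio was -1.05 at the promoter peak chr13:83720238-83720518, where NC had 42 reads and siPiezo2 14, or densities of 18.8 and 8.58 (counting interval up to -0.14, widened up to 0.25). The peak with the most reads, at chr13:83752029-83752339 in an intron, had 92 and 37 reads, densities of 37.7 and 23.4 and a log2 ratio of -0.67 (counting interval -1.26 to -0.10, widened up to 0.15). Both were past 1.5-fold, as was the intron peak chr13:83713873-83714130 at -0.83 (counting interval -1.63 to -0.081, widened up to 0.25). At the start whose sequence is printed above, the peak had densities of 25.4 and 19.2 and a log2 ratio of -0.39, and at the start with the nearest summit, chr13:83672344-83673045, they were 27.0 and 18.6. The counting intervals of both include 0. The nearest peak of the gene lay 14.1 kb from its first start. No single Mef2c peak had a widened interval off 0, so the value of the gene rests on the sum.

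Meox1, a homeobox factor, lies at chr11:101768336-101785200 (ENSMUSG00000001493, minus strand). Its 1 annotated peak, in an intron at chr11:101769660-101769878, had 64 and 44 reads and densities of 26.6 in NC and 27.5 in siPiezo2, a log2 ratio of 0.05 (counting interval -0.54 to 0.62). The 2 intergenic peaks upstream, at chr11:101796002-101796279 and chr11:101801105-101801350, were at 0.03 and -0.31, with counting intervals that include 0. All 3 were called in NC only.

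**Figure D3:**
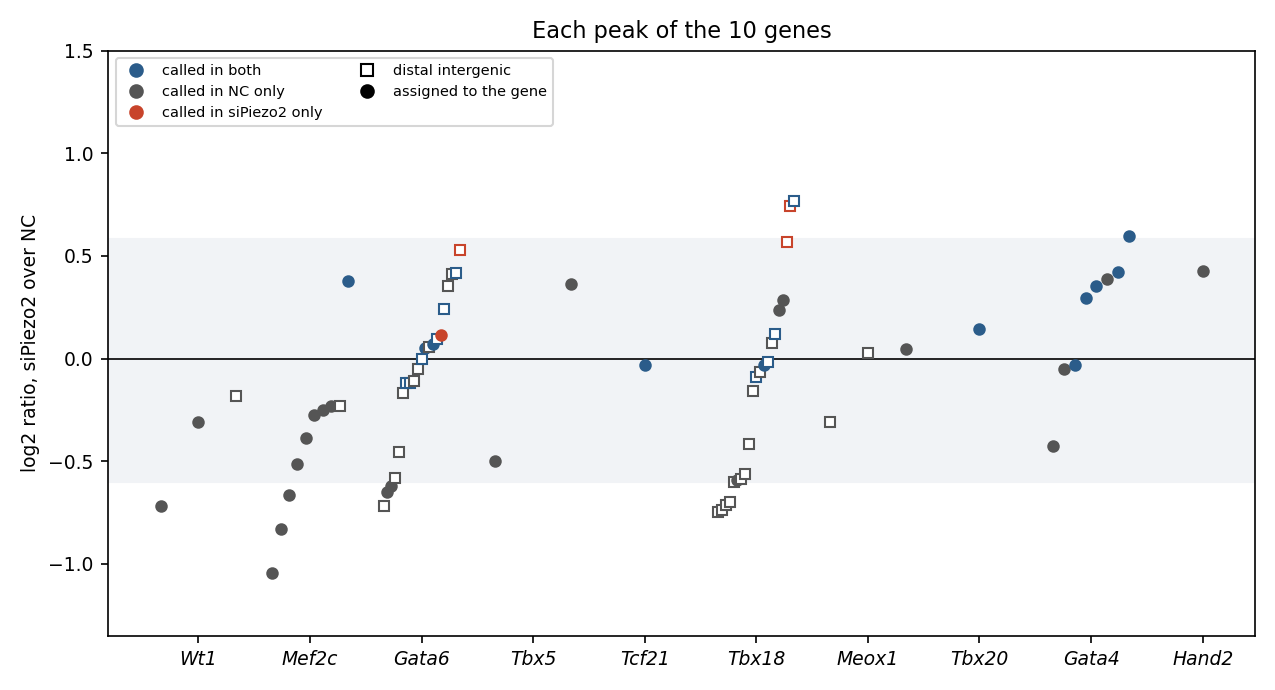
Log2 ratio of siPiezo2 over NC at each of the 71 peaks, by gene in order of the gene ratio. Circles are peaks annotated to the gene and open squares are distal intergenic peaks, colours give the library or libraries in which a peak was called, and the grey band spans the ratios within 1.5-fold. The 12 peaks below the band were all called in NC only, and 8 of the 9 annotated Mef2c peaks lie below 0, as do 63.7% of all peaks and 73.1% of those called in NC only.

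Taken peak by peak, 12 of the 71 were lower past 1.5-fold, against 13.5% of all peaks, and 3 of 71 were higher, against 3.21%. The balance depended on the scale. With the recovered reads at the same total, 4 were lower, against 7.74% of all peaks, and 9 higher, against 8.35%. With median-of-ratios scaling, 4 were lower, against 8.35%, and 5 higher, against 6.27%. On the main scale their median log2 ratio was -0.07, beside -0.13 over all peaks. The call of a peak went with its ratio. The 46 peaks called in NC only had a median of -0.31, with 12 lower past 1.5-fold, against 18.3% of all such peaks, and 0 higher, against 1.01%. The 21 called in both had a median of 0.10, with 0 lower, against 5.36%, and 2 higher, against 4.41%. The 4 called in siPiezo2 only had a median of 0.55. Over all peaks the medians in these classes were -0.23, 0.0025 and 0.58. A peak called in 1 library only passed the call there and not in the other library, which had a different read total. Of the 40553 peaks called in NC only, 10929 had higher normalized density in siPiezo2. The part of this selection and of read depth in these medians was not tested.

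Within 1 kb of a TSS, 8 of the 10 genes had 14 peaks, with values on both sides of 0, from -1.05 at Mef2c to 0.60 at Gata4. Of the 14, 2 were lower past 1.5-fold, against 6.43% of all such peaks, and 1 was higher, against 2.08%. Their median log2 ratio was -0.03, beside -0.04 over all such peaks, and the 8 of them called in both libraries had a median of 0.06, beside 0.04. Beyond 1 kb, the median of 57 peaks was -0.11, beside -0.17. In the annotation, 52.1% of the member peaks were distal intergenic, against 30.7% of all peaks, 26.8% lay in introns, against 42.0%, and 12.7% were promoter peaks within 1 kb, against 14.6%.

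The intergenic peaks belonged mostly to Gata6 and Tbx18, which held 33 of the 37. Of the 37, 6 were lower past 1.5-fold, against 16.6% of all distal intergenic peaks, and 2 were higher, against 4.02%. Nearest TSS is the table's rule and does not show which gene such an element acts on.

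All 16 intergenic peaks of Gata6 lay downstream of it, between 33.6 and 314 kb from its nearest annotated start, and 10 of them lay beyond 250 kb. These 10 had summed densities of 262 in NC and 279 in siPiezo2, with 5 lower and 5 higher and a median log2 ratio of 0.03. The peak farthest away, at chr18:11373077-11373712, had 133 and 104 reads and densities of 51.2 and 68.7, a log2 ratio of 0.42 (counting interval 0.032 to 0.80, widened -0.14 to 0.97). The lowest value was -0.72 at chr18:11165040-11165299 (19.8 and 11.6), and the highest was 0.53 at chr18:11310015-11310215 (11.3 and 16.7), both with counting intervals that include 0. With all 21 peaks summed, Gata6 had densities of 667 and 668 and a log2 ratio of 0.0023, with a widened interval of -0.16 to 0.16, the narrowest of the 10 genes, although overlapping windows make it narrower than the reads allow.

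Around Tbx18 the 17 intergenic peaks lay on both sides. The 10 downstream of its start, between 64.4 and 198 kb away, had summed densities of 272 in NC and 221 in siPiezo2, a median log2 ratio of -0.50, 4 peaks lower past 1.5-fold and 0 higher. The 7 upstream had 148 and 171, a median of -0.07, 1 lower and 2 higher. Of all distal intergenic peaks, 16.6% were lower and 4.02% higher. The calls moved with the side, since 8 of the 10 downstream peaks were called in NC only and 2 in both, while of the 7 upstream 3 were called in NC only, 2 in both and 2 in siPiezo2 only. The difference between the sides was not tested. The strongest peak on the downstream side, at chr9:87500234-87500768, differed little from NC, with 201 and 111 reads, densities of 75.6 and 74.8 and a log2 ratio of -0.02 (counting interval -0.36 to 0.33).

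The lowest and the highest ratios among the Tbx18 peaks both came from pairs with shared reads. The lowest, -0.75 at chr9:87495751-87495987 (32.2 and 18.8), overlaps the window of chr9:87495179-87495410, which was at -0.71. The highest, 0.77 at chr9:87852694-87852943 (22.3 and 38.8), overlaps that of chr9:87852286-87852617, which was at 0.74. The summits lie 575 bp apart in the low pair and 367 bp apart in the high pair, so each pair counts part of its reads more than once. With all 21 peaks summed, Tbx18 had densities of 551 and 524 and a log2 ratio of -0.07.

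**Figure D4:**
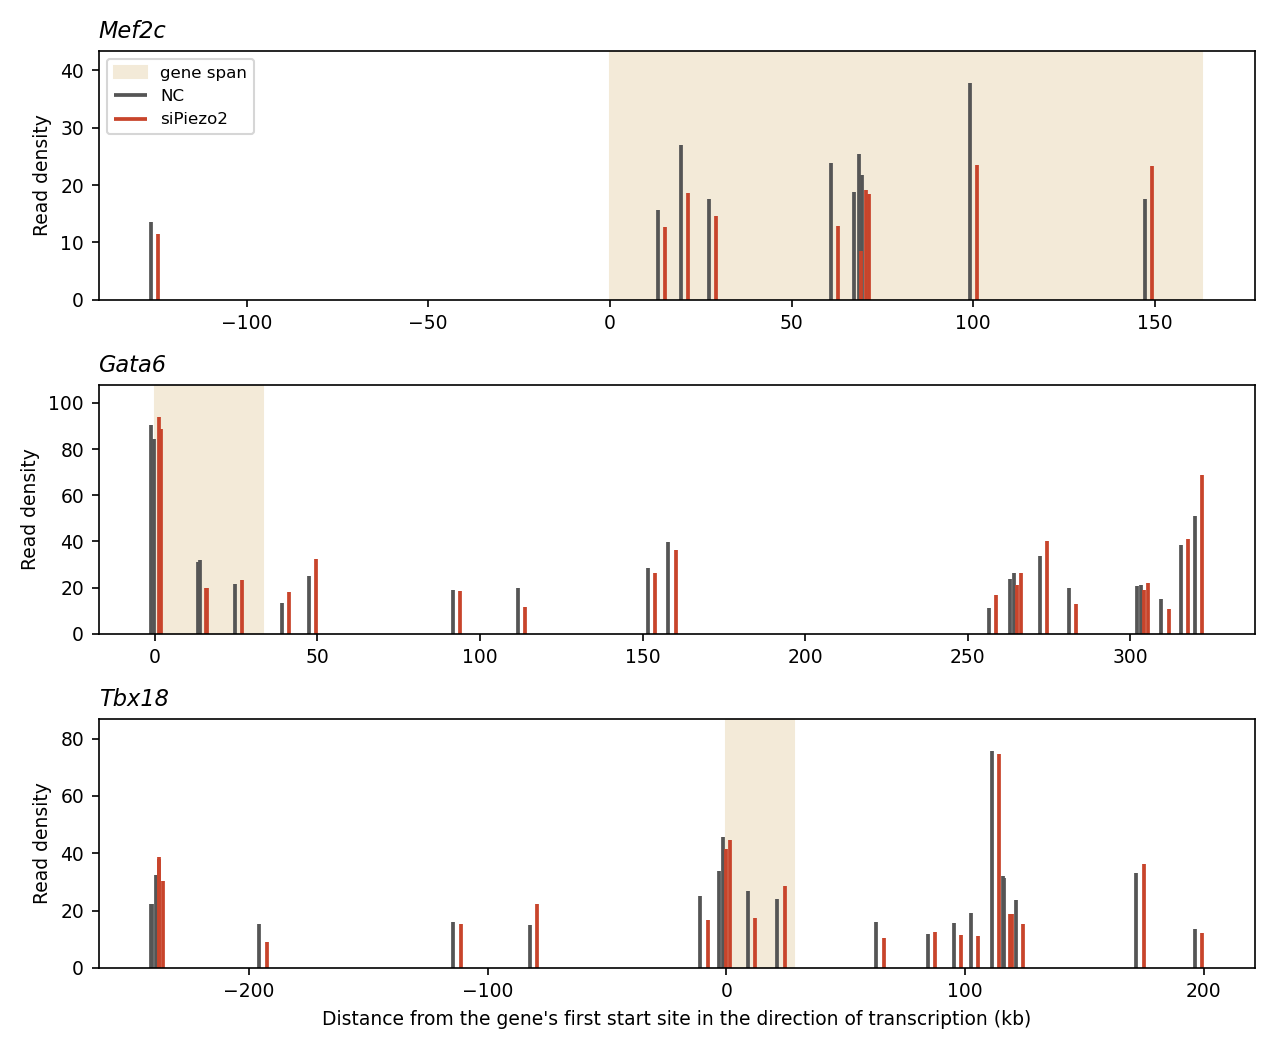
Read density at each peak of Mef2c, Gata6 and Tbx18 in NC and siPiezo2, against the distance from the first start of the gene in the direction of transcription (kb), with the gene span shaded. The lines of one peak are drawn slightly apart. In the Mef2c panel 9 of 10 peaks are lower in siPiezo2, in the Gata6 panel the start-site peaks stand highest and the farthest peak is higher in siPiezo2 (51.2 and 68.7), and in the Tbx18 panel the tallest peak, downstream of the gene, is level.

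Paralogs and partners of the 10 factors were described from a list of 20 genes, of which 10 had an annotated peak. Their median log2 ratio was 0.03, with 4 below 0 and 6 above it. Tcf12, an E-protein that pairs with factors such as Tcf21 and Hand2, was lowest at -0.70, with 9 peaks, densities of 208 and 128 and a widened interval of -1.05 to -0.36. Tcf4, another E-protein, was at -0.27 (376 and 311, widened interval -0.51 to -0.04), and Mef2b, a paralog of Mef2c, at -0.17 (47.4 and 42.1, counting interval -0.63 to 0.28). The E-protein gene Tcf3 was at 0.18 (52.3 and 59.2), so the E-protein genes lay on both sides of 0, although the counting interval of Tcf3 includes 0. Mef2a, a further paralog of Mef2c, was highest at 0.44, with densities of 75.8 and 103 and a widened interval of -0.0089 to 0.89, and Zfpm1, a cofactor of GATA factors, was at 0.16 (168 and 188). Of the 10, 1 gene was lower past 1.5-fold and 0 were higher, against the 6.21% and 1.54% of all genes given above. On the main scale, 2 had a widened interval below 0, against 6.64%, and 0 had one above 0, against 1.39%. That of Tcf4 includes the median of all genes, -0.093. These calls were not repeated with equal read totals, and those of the 10 members depended on the scale.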

How the data were processed

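ATAC-seq peaks were analysed in 2 libraries of primary murine cardiac fibroblasts, 1 per condition, grouped by their titles. The labels and the study's reagent list name a Vazyme kit, while its ATAC-seq protocol describes another kit and minced tissue, and the series text names a Tet3 knockout. These differences were not settled here.

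The submitters' processing notes give BWA 0.7.12 and the build mm10, and the study's methods name Picard, MACS2, HOMER and featureCounts. Gene coordinates in the table are not those of GRCm38 and are those of GRCm39, so positions are given as GRCm39 and no sequence was read by them. The authors deposited signal values, which are read densities after removal of a straight line fitted to log2 ratio against mean log2 density at peaks of both libraries. The deposited log2 columns (a ratio and a mean) and the authors' unadjusted p-value columns were not used.

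Whole reads per window were recovered from the densities by solving for the fit (100% of windows within 0.05 reads of a whole number), taking 1 read as added to each window. Densities were summed over a gene's annotated peaks, with a pseudocount of 1. Members, lists, motifs and rules were chosen with earlier results of these data known. The named peaks were, for each gene, the peak nearest its TSS, the one with the most reads, and the lowest and highest log2 ratio among peaks with at least 50 reads over both libraries, and other peaks were named after their values were seen. Of the list of partners, the 3 lowest and 3 highest genes were named. Scaling, pseudocount, peak choice and fold threshold were varied. The recovery was tested on simulated data. Intervals cover counting error only unless widened, since reads carry no molecular identifiers. Promoter sequences came from RefSeq (GRCm38.p6). The software was scipy 1.17.1, pandas 2.3.3 and numpy 2.4.6 under Python 3.11.15, with figures from matplotlib 3.10.9.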

Additional observations from a re-analysis of the deposited data

How the results depend on the processing

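Of 175 values recomputed under other settings, 133 stayed within their interval or tolerance. Some of these could not move. Keeping peaks within 50 kb of the TSS, or with at least 50 reads, removed no annotated peak, so the gene ratios were unchanged. Genes with 1 annotated peak also kept their ratio under the strongest peak. The 133 are therefore not a measure of how stable the values are. No paired analysis was possible because each condition had 1 library, which also left no library to leave out.

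The median log2 ratio of the 10 genes was 0.13 with median-of-ratios scaling, 0.10 over peaks called in both libraries (6 genes) and -0.68 for reads with no scaling. Lower past 1.5-fold, 0 of 10 genes were counted with median-of-ratios scaling, the same total of density or of reads, a 2-fold threshold, or intergenic peaks added (a choice made after seeing the data). The count was also 0 of the 6 genes with peaks called in both and 0 of the 5 with promoter-class peaks. Wt1 has no peak of either kind, so it could not be counted there. Under these settings 0.839% to 6.45% of all genes were lower. With the strongest peak of each gene the count was 2 (8.64% of all genes). With no scaling it was 6 (64.4%), where the median of all genes was -0.71 and 5 of the 10 lay below it. Higher, 1 gene was counted with the same total of reads (4.44% of all genes) and 1 with the strongest peak (2.61%).

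The shares of all peaks under the same setting follow each count of peaks in parentheses. Of the 71 peaks, 4 were lower with median-of-ratios scaling (8.35%), 4 with the same total of reads (7.74%), 42 with no scaling (60.9%) and 1 at a 2-fold threshold (2.76%). Lower were also 0 of the 21 called in both (5.36%), 6 of the 40 within 50 kb of the TSS (12.7%) and 6 of the 34 annotated peaks (12.2%, also chosen after seeing the data). Higher, 5 of 71 were counted with median-of-ratios scaling (6.27%), 5 with the same total density (4.90%), 9 with the same total of reads (8.35%), 0 with no scaling (0.436%) and 0 at 2-fold (0.504%). Higher were also 1 of the 62 separate windows (3.30%), 1 within 50 kb (3.02%) and 1 annotated peak (2.82%). Of the 8 start-site ranks, 1 was kept in NC alone and 6 in siPiezo2 alone. Gata4 turned to -0.43 with no scaling, 0.27 above the median of all genes there. It turned to -0.032 with promoter-class peaks, which leave out its upstream start-site peak (0.60), since that peak is in the 5′ UTR class. Mef2c turned to 0.38 in its 1 peak called in both libraries. No scaling keeps the ratio of read totals, 0.597. Other causes were not tested.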

Other observations

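Peaks that the table gives to other genes lay within 60 kb of 7 of the 10 genes, a span chosen after seeing the data. There were 36 of them, 15 intergenic and 21 annotated to another gene. Their median log2 ratio was -0.08, beside -0.13 over all peaks, and 21 of the 36 lay below 0, against 63.7% of all peaks. Past 1.5-fold, 3 were lower, against 13.5% of all peaks, and 2 higher, against 3.21%.

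Upstream of Gata4, 2 intergenic peaks called in both libraries were higher in siPiezo2. The peak at chr14:63534682-63535001, 25.7 kb before the upstream Gata4 start, had densities of 20.9 in NC and 34.2 in siPiezo2 and a log2 ratio of 0.68 (counting interval 0.11 to 1.27). The next, at chr14:63546474-63546779, was at 0.51 (22.5 and 32.4, counting interval -0.07 to 1.08). The last, at chr14:63549619-63549894, was at -0.0074. The table gives all 3 to the gene ENSMUSG00000114898.

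The 2 peaks annotated to Gm34030, 7.73 and 8.09 kb past the Hand2 start, had densities of 38.0 and 33.3 in NC and of 51.0 and 44.1 in siPiezo2, both above those of the Hand2 peak. Their summits lie 362 bp apart, so their windows overlap and share reads. Their log2 ratios were 0.41 and 0.39 with counting intervals that include 0. Farther downstream, the peaks of Hdnr were at 0.02, 0.20 and -0.79, the last at chr8:57814059-57814405 (24.1 and 13.6). An intergenic peak at chr8:57836807-57837327 was at -0.86 (31.5 and 16.9, counting interval -1.56 to -0.21). The Hdnr peaks and this intergenic peak were all called in NC only. The noncoding genes next to Hand2 thus held peaks of both signs.

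Inside the span of Meox1, the peak annotated to Gm11551 at chr11:101776031-101776477 was stronger in NC than the Meox1 peak itself. It had 98 and 39 reads, densities of 40.0 and 24.8 and a log2 ratio of -0.67 (counting interval -1.24 to -0.12). At Wt1os, the antisense neighbour of Wt1, 2 peaks 14.3 and 17.5 kb before the first Wt1 start were called in both libraries and were at -0.06 and -0.16, where Wt1 had no listed peak of its own.

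The 4 peaks annotated to Gata6os, upstream of Gata6, ranged from -0.49 to 1.12. The highest, called in siPiezo2 only, with 10 reads in NC and 21 in siPiezo2, had a counting interval of -0.03 to 2.37.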
